A study of Mchenga conophoros and Petrotilapia sp. 'chitimba' with 16 samples.

Results

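The transcripts described here are cd74, srgn, psap and laptm4a, 4 genes of immune cells and lysosomes in the brains of cichlid fish from Lake Malawi. They were chosen by their read counts, for low values in the immunoprecipitated (IP) libraries of one or both species, with no numeric threshold, and the locus of each gene is the annotated one with the highest summed input count. They are 4 of 61384 assembled loci, of which 30487 match an annotated gene. Whole brains of 8 adult males gave 16 sequenced libraries, and the fish were 4 Petrotilapia sp. 'chitimba' (PC) and 4 Mchenga conophoros (MC), species that differ in aggression toward a mirror. In each species 2 fish were taken 90 min after 15 min with a mirror in the home tank and 2 after a control condition, and no fish is labelled as carrying a transgene or a drug. Each cleared brain lysate gave an input sample and, by an antibody to the phosphorylated ribosomal protein S6 (pS6), an IP sample of RNA held on such ribosomes. This method, PhosphoTRAP, is used because pS6 is raised in activated neurons. Each of 2 processing batches (a and b) held 1 fish per species and condition, so that batch crosses the groups, and fish are named below by their number in the labels. The labels give no age, and they do not say how closely the fish of a species are related.

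Cells of the immune system and lysosomes share these genes in different ways. The cd74 protein, the invariant chain, escorts MHC class II molecules from their site of synthesis to the endosomes and lysosomes where peptides are loaded, and in the mammalian brain it marks microglia, macrophages and other antigen-presenting cells. Serglycin, the srgn product, is the proteoglycan that packs proteases and cytokines into the granules of mast cells, granulocytes and other blood cells in mammals. Prosaposin, the psap product, is cut in lysosomes into saposins, the helpers of sphingolipid-degrading enzymes, and is also secreted by neurons and glia; laptm4a is a protein of the lysosome membrane found in most cell types. In a brain lysate these transcripts can come from cells other than neurons, and PhosphoTRAP recovers from any cell type only what is bound to ribosomes carrying pS6.

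The libraries differed in depth, and this limits what the IP values can show. Inputs held between 10073251 and 23594320 counts, the 2 deepest being both PC mirror inputs, and IP libraries between 1872019 and 11186928. The 2 IP libraries with the fewest counts were those of MC fish 9 and 10, both of batch a. Inputs detected 30469 to 34760 loci with at least 1 count, and IP libraries 3714 to 10466. Neuronal transcripts were present throughout: all 7 neuronal genes matched from a list were found in every input, at a summed level of 2556 to 5425 CPM. CPM are a locus's counts divided by the library total and multiplied by 1000000, and levels below are CPM unless a fitted value is named. CPM is not corrected for transcript length, so levels are compared between libraries and not between genes.

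The transcripts stood far below input in all 4 MC fish, and in PC their mean levels ranged from below input to equal to it. This contrast chose them, so the values of input against IP are a description, with no test. The name of the set holds for MC; in PC, srgn was level with input, and laptm4a, at 72.5% of input, was close to other loci of its level.

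For cd74, the input level in MC was 489.5 CPM in control fish 10, 388.2 in control fish 22, 531.6 in mirror fish 9 and 488.3 in mirror fish 21. In IP these fish, in that order, held 0, 38.3, 10.7 and 20.1 CPM, from 0, 355, 20 and 184 counts. In PC the inputs held 232.1 CPM in control fish 11, 377.4 in control fish 24, 287.1 in mirror fish 12 and 267.1 in mirror fish 23, against IP levels of 49.1, 93.9, 102.7 and 92.6 CPM. Every IP library lay below the input of its fish, and the mean IP level was higher in PC while the mean input level was higher in MC. The mean IP level was 17.3 ± 16.3 CPM in MC and 84.6 ± 24.1 in PC (SD, n = 4), which is 3.64% of the mean input level in MC and 29.1% in PC. Across single PC fish the IP level was 21.1% to 35.8% of input.

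For srgn, the MC inputs held 124.0 CPM in control fish 10, 141.1 in control fish 22, 99.7 in mirror fish 9 and 182.7 in mirror fish 21. The matching IP libraries held 0, 0, 3 and 9 counts. In PC the inputs held 200.3 CPM in control fish 11, 415.8 in control fish 24, 153.3 in mirror fish 12 and 434.4 in mirror fish 23, against IP levels of 233.9, 419.2, 102.5 and 455.1 CPM. In PC, each fish's IP level followed its own input, so that batch b fish were high in both fractions. The IP level was 101% of the mean input in PC, with single fish between 66.8% and 117%, and 0.473% in MC. The MC value rests on 12 counts in all.

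For psap, input levels in MC lay close together, at 322.0 CPM in control fish 10, 338.5 in control fish 22, 308.5 in mirror fish 9 and 301.3 in mirror fish 21. The matching IP libraries held 1, 30, 12 and 314 counts, a wide scatter of 0.368, 3.24, 6.41 and 34.3 CPM. In PC the inputs held 190.4 CPM in control fish 11, 211.2 in control fish 24, 151.6 in mirror fish 12 and 148.0 in mirror fish 23, against IP levels of 91.4, 77.6, 40.9 and 47.4 CPM. As for cd74, the mean IP level was higher in PC and the mean input level higher in MC. The mean IP level was 11.1 ± 15.7 CPM in MC and 64.3 ± 24.1 in PC (SD, n = 4), or 3.49% and 36.7% of mean input. The MC mean is set largely by mirror fish 21, whose IP level was 11.4% of its input; in the other MC fish it was 0.114% to 2.08%.

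For laptm4a, all 4 MC IP libraries held 0 counts. The MC inputs held 185.7 CPM in control fish 10, 174.5 in control fish 22, 212.8 in mirror fish 9 and 145.1 in mirror fish 21. A count of 0 over the 4 MC IP libraries together allows a level of up to 0.130 CPM (3 counts over the group, counting error only), at least 1376-fold lower than the mean input. In PC the inputs held 118.8 CPM in control fish 11, 144.6 in control fish 24, 148.8 in mirror fish 12 and 94.3 in mirror fish 23, against 42.2, 137.9, 66.9 and 120.2 CPM in IP. The PC IP level was 72.5% of mean input; it was 35.5% and 45.0% in the batch a fish and 95.3% and 128% in the batch b fish.

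**Figure D1:**
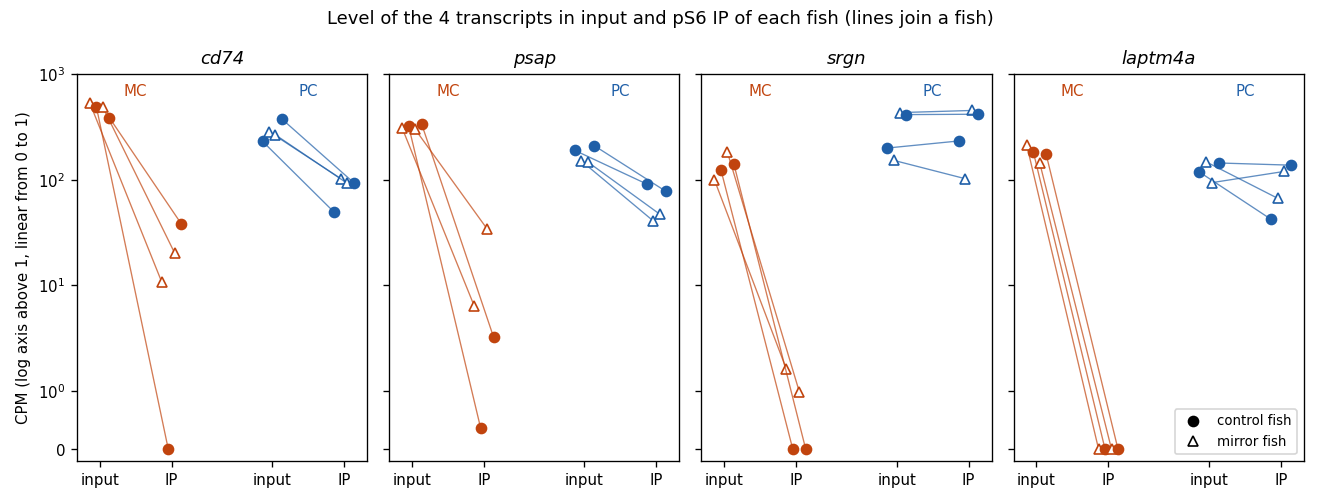
Level of each transcript in CPM (vertical axis, logarithmic above 1 and linear from 0 to 1) in the input and IP library of each fish, MC in orange and PC in blue; a line joins the libraries of a fish, filled circles are control fish and open triangles mirror fish. The 4 MC lines fall steeply for every gene, to 0 for laptm4a, whereas the PC lines of srgn stay level.

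Where a level differs between the species, fewer cells of a type and less RNA per cell cannot be told apart in such bulk libraries. Input and IP of a fish came from the same lysate, and the cause of a low IP level relative to input was not tested. The authors' deposited table of IP against input, over all fish, gives log2 fold changes of -3.22 for cd74, -3.76 for srgn, -3.07 for psap and -4.99 for laptm4a, which are averages over both species.

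How unusual such IP levels were depended on the species. Annotated loci with a mean input level within a factor of 2 of each gene were taken for comparison, 275 for cd74, 513 for srgn, 446 for psap and 771 for laptm4a. Their median IP level was 84.4% to 96.9% of input in MC and 81.4% to 114% in PC. In MC, 2.18% of the loci at the level of cd74 had an IP level as low or lower relative to input, 1.95% at that of srgn, 3.14% at that of psap and 2.72% at that of laptm4a. In PC the same shares were 3.27% for cd74, 56.0% for srgn, 12.3% for psap and 44.1% for laptm4a. The genes were chosen for low IP counts in one or both species, so low ranks follow from the choice and are a description only. Within it, only cd74 was near the low end of its comparison loci in both species, and srgn and laptm4a were in the middle of theirs in PC.

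**Figure D2:**
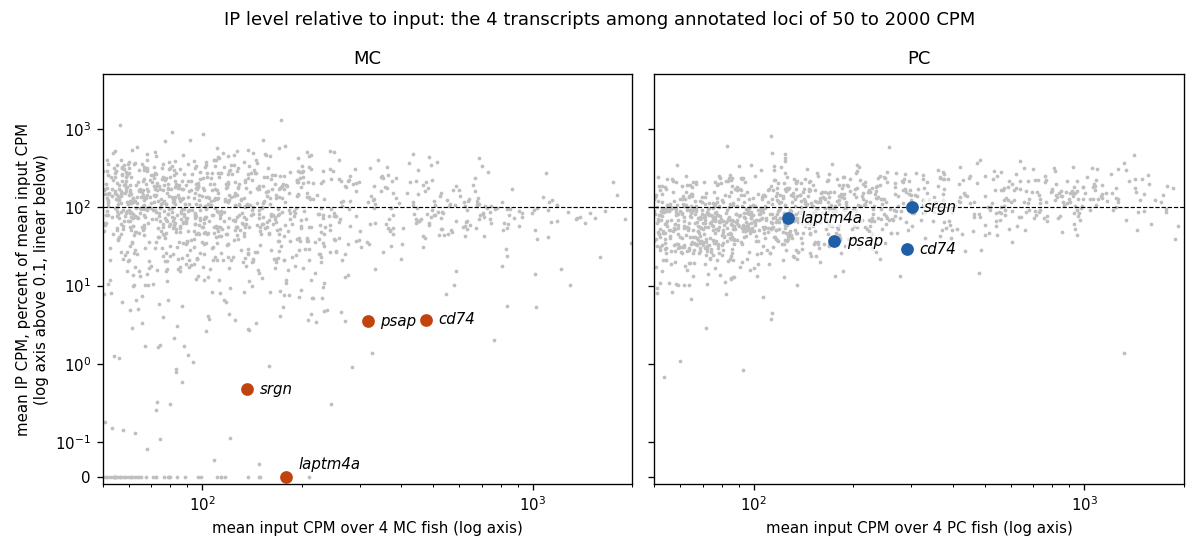
Mean IP CPM as a percent of mean input CPM (vertical axis, logarithmic above 0.1) against mean input CPM (horizontal axis, logarithmic) over 4 fish, for MC on the left and PC on the right; grey points are annotated loci with 50 CPM or more in the inputs of both species, and the dashed line marks equal levels. In MC the 4 transcripts lie near the lower edge, from 3.64% down to 0, and in PC cd74, at 29.1%, psap, at 36.7%, and laptm4a, at 72.5%, lie below the dashed line and srgn on it.

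Detection differed between the IP libraries, and it did not simply follow their depth. Of the 771 loci at the input level of laptm4a, 52.3% were detected in the IP library of MC fish 9 and 55.3% in that of MC fish 10, against 87.9% and 89.4% in MC fish 21 and 22 and 84.6% to 98.3% in the PC fish. The lowest PC share, 84.6%, was that of PC fish 23, the deepest IP library (11186928 counts), and PC fish 24, with 4250470 counts, detected 97.3%. Of these loci, 21 were at 0 in all 4 MC IP libraries, of which 9 had counts in all 4 of PC, and 0 were at 0 in all 4 PC IP libraries. In the deeper MC libraries of batch b alone, cd74 was at 9.87% and 4.12% of input, psap at 0.957% and 11.4%, srgn at 0 and 9 counts, and laptm4a at 0 counts in both. The part of depth in the batch a values was not tested.

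Only srgn of the 4 met a further description, an IP level under 5 CPM in every MC fish and over 50 CPM in every PC fish. It was met by 11 annotated loci, and the reverse by 0. The others with a gene symbol were lg7h18orf32, lin52, slc38a2, an amino acid transporter gene, nmb, which encodes the peptide neuromedin B, lsm4, an RNA-binding protein gene, and fmc1. Over the 16 libraries, the loci whose log2(CPM + 1) followed that of srgn most closely were lsm4 (Pearson r = 0.989), LOC101469849 (0.982), glrx (0.981), prdx2 (0.981) and nelfe (0.980), among 4223 annotated loci with a mean input of at least 20 CPM. For laptm4a these were LOC101471915 (0.993), LOC101474887 (0.984) and gosr1 (0.981). For cd74 they were ND3 (0.957), ddx6 (0.931) and psap itself (0.926), and for psap atp1b4 (0.953), oat (0.949) and ND3 (0.944). These coefficients describe the 16 libraries, which share fish, batch and depth, and much of each comes from the step between fractions and species.

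The question whether the species differ in total brain RNA was not used in the choice of the genes and was tested on the 8 inputs with edgeR's quasi-likelihood test. Of the 4, srgn passed the test, and it was higher in PC: its mean was 300.9 ± 145 CPM in PC and 136.8 ± 35.0 in MC (SD, n = 4), a fitted log2 fold change of 1.38 ± 0.25 (SE) with an adjusted p of 0.0100. Among all loci tested, 10.4% were called in this comparison, 8.16% higher and 2.28% lower in PC; 2345 were higher and 655 lower with TMM scaling, and 1398 higher and 1245 lower with library totals. The PC and MC inputs overlapped for srgn, since PC mirror fish 12, at 153.3 CPM, lay below MC mirror fish 21, at 182.7. Leaving out each fish in turn gave log2 fold changes of 1.06 to 1.69. Each of these fits leaves a group of 1 fish and a wider set of loci, so whether srgn passes in them is not read. Within batch a the log2 fold change was 0.99 (edgeR adjusted p = 0.0447), and within batch b it was 1.84 (edgeR adjusted p = 0.0507). When all 16 libraries were fitted together, so that the wider spread of the IP libraries entered the error, srgn was at 1.08 with an edgeR adjusted p of 0.843, and 0 of 29597 loci were called.

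The species difference in input moved with the genomic span of the locus, and this value belongs beside that of srgn. Among annotated loci tested with a mean input of at least 20 CPM, the median fitted log2 difference, PC against MC, was 1.33 for the 509 loci spanning up to 3000 bp. It was 0.85 for the 848 loci of 3000 to 6000 bp, 0.36 for the 754 of 6000 to 10000 bp and -0.30 for the 484 above 50000 bp. The srgn locus spans 6136 bp, near the lower edge of its class of 6000 to 10000 bp. Its 1.38 was exceeded by 14.2% of the loci of that class, and 30.4% of the class were called higher in PC. In the adjoining class of 3000 to 6000 bp, 48.2% were called higher. The part of span in the srgn difference was not tested.

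The other transcripts were lower in PC inputs on average, without passing the test. For psap all 4 PC inputs lay below all 4 MC inputs (175.3 ± 30.7 against 317.6 ± 16.4 CPM, SD, n = 4), as did 12.5% of all loci tested. Its fitted log2 fold change was -0.53 ± 0.16 (SE; edgeR adjusted p = 0.0749); DESeq2, which called 20.6% of all loci, gave -0.60 with an adjusted p of 0.00026, and scaling by library totals without TMM factors, which shifts all loci, gave -0.88 with an edgeR adjusted p of 0.016. For cd74 the groups did not overlap either (290.9 ± 62.0 against 474.4 ± 60.9 CPM, SD, n = 4), and the fitted value was -0.38 ± 0.18 (SE; edgeR adjusted p = 0.228). For laptm4a the groups overlapped (126.6 ± 25.3 against 179.5 ± 28.0 CPM, SD, n = 4), at -0.17 ± 0.18 (SE; edgeR adjusted p = 0.599). CPM of the library total puts PC lower than the fitted values do, since TMM factors were 1.02 to 1.21 in MC inputs and 0.762 to 1.01 in PC inputs. The cd74 locus, of 4854 bp, stood below 92.6% of the loci of its span class, psap, of 8276 bp, below 91.6%, and laptm4a, of 9896 bp, below 77.3%.

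**Figure D3:**
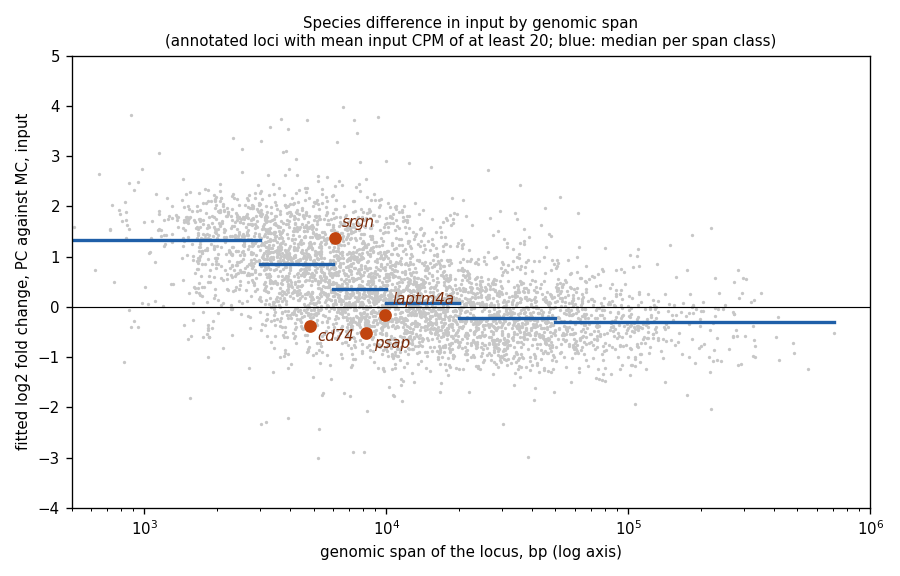
Fitted log2 fold change of PC against MC in the 8 inputs (vertical axis) against genomic span of the locus in bp (horizontal axis, logarithmic) for annotated loci with a mean input of at least 20 CPM (grey); blue lines are the medians of span classes and orange points the 4 transcripts. The medians fall from 1.33 at spans up to 3000 bp to -0.30 above 50000 bp, srgn lies above the median of its class, and cd74, psap and laptm4a lie below theirs.

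Across the 8 inputs, srgn ran against the other transcripts. The correlation of log2(CPM + 1) was -0.51 with cd74, -0.62 with psap and -0.81 with laptm4a, whereas cd74 and psap (0.84), cd74 and laptm4a (0.80) and psap and laptm4a (0.78) ran together. These are descriptions over 8 fish of both species, and the step between the species enters each of them. Among 4223 annotated loci ordered by correlation with cd74, psap had rank 218 and laptm4a rank 378. In the order for psap, laptm4a had rank 700. In the order for srgn, cd74 had rank 2503, psap 2776 and laptm4a 3524. Coefficients of this size were therefore common in these inputs and are not particular to the 4 transcripts.

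Mirror exposure was tested in input and on IP enrichment. The contrast of mirror and control fish did not enter the choice of the genes. IP enrichment is built from the IP counts that did, so its tests are not fully independent of that choice. In input, 0 of the 4 passed (edgeR, adjusted p of 1 for each; 0 with an unadjusted p under 0.05; 0 with DESeq2), where 0.0104% of all loci did. The fitted log2 differences, mirror against control, were 0.09 ± 0.18 for cd74, -0.02 ± 0.25 for srgn, -0.22 ± 0.16 for psap and -0.05 ± 0.18 for laptm4a (SE). The 2 PC mirror inputs are also the deepest, so in PC depth and condition cannot be told apart.

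The mirror effect on IP enrichment, IP minus input in mirror fish against the same in control fish, was called for 0 of the 3 transcripts with counts in both species (edgeR; 0.0% of all loci called, 1556 loci with an unadjusted p under 0.05; DESeq2 called 0 of the 3 and 1821 loci in all). For cd74 the fitted log2 effect was 0.12 ± 1.57 (SE), an error wider than the effect itself. For psap it was 1.46 ± 1.17 (SE; unadjusted p = 0.239, edgeR adjusted p = 1). In MC, IP enrichment of psap was higher in the mirror fish of both batches, by 4.18 (exact 95% counting interval 1.43 to 9.60, from 12 counts against 1) and 3.57 (3.03 to 4.17) on the log2 scale, and in PC it was lower, by -0.83 and -0.20. For srgn the unadjusted p was 0.0147 and the edgeR adjusted p 0.763; in MC this rests on 3 and 9 counts in the mirror fish against 0 and 0 in the control fish, and in PC the differences were -0.81 and 0.06. For laptm4a the effect could not be fitted in MC, where IP held 0 counts, and in PC mirror fish exceeded control fish by 0.34 and 0.42 on the log2 scale.

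Other lysosomal genes were not picked by their own IP counts, and their difference between IP and input was tested. Their lists were drawn up with earlier results of these data known, so these tests are not independent of the theme. Of 38 tested genes of lysosomal enzymes and activators, 32 were lower in IP and 0 higher (edgeR, adjusted p under 0.05), with a median log2 fold change of -7.43. Of 26 lysosomal membrane proteins 22 were lower and 0 higher, with a median of -7.15. Most loci were lower as well: 57.4% of all 29597 tested were lower and 0.331% higher, with a median of -4.97. Mean input was at most 44.5 CPM per enzyme gene and 123.7 CPM per membrane gene. The share called lower among loci of like input level was not counted. These calls are made on fitted log2 values that average the groups, in which libraries at 0 weigh more than in a mean CPM. TMM factors were 0.872 to 1.64 in IP libraries and 0.749 to 0.913 in inputs. They put fitted IP values lower relative to input than CPM does, except in PC mirror fish 12. A gene can therefore be called lower with a mean IP level above input. The mean IP CPM was above mean input in at least 1 species for 3732 of the 16997 loci called lower, for 3 of the 32 enzyme genes (aga, arsb and npc2) and for 7 of the 22 membrane genes, tmem59 and cd63 among them. The summed CPM do not follow the fitted medians throughout. Summed over the enzyme list, IP was above input in MC control fish 22 (626.3 against 326.4 CPM), PC mirror fish 23 (337.4 against 275.5) and PC control fish 24 (366.8 against 340.2), and below it in the other fish, with 1 to 9 of 39 genes detected per IP library. The membrane list was below input in every fish. With the fish as a block, and likewise without the shallow IP libraries of both MC fish of batch a, 0 genes of either list were called, and only 173 and 4 loci in all were lower.

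Individual lysosomal genes differed. The protease gene ctsd, among the most abundant of the enzyme list, had a mean IP level of 161% of input in MC, where 3 of 4 libraries were at 0, and 101% in PC, and was not called (-3.36 ± 1.54 log2, SE; edgeR adjusted p = 0.0822). Transcripts of tpp1, a peptidase gene, and of clcn7, a chloride transporter gene of the lysosome membrane, were at 0 in all 8 IP libraries. Their mean inputs were 10.4 and 14.2 CPM in MC and 7.67 and 8.49 CPM in PC. IP libraries detected 3714 to 10466 loci against 30469 to 34760 in inputs, and the share of loci at such input levels that were at 0 in IP was not counted. The abundant lamp2, a main protein of the lysosome membrane, had a mean input of 148 CPM in MC and 100 in PC and was lower in IP by a log2 fold change of -3.88 ± 1.00 (SE; edgeR adjusted p = 0.0077), with 23.1 CPM in MC IP and 16.8 in PC IP. With the fish as a block, which pairs each IP library with its input, this call was lost. In CPM, the mean IP level of lamp2 was higher in MC, unlike that of cd74 and psap, with 1 PC IP library at 0. Relative to mean input it was alike in the species, at 15.65% in MC and 16.81% in PC.

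One lysosomal gene of the lists had the pattern of laptm4a, 0 counts in all 4 MC IP libraries and counts in all 4 of PC, which 0.432% of all tested loci had and 1.54% of the 4224 annotated loci with a mean input of at least 20 CPM. Transcripts of this gene, npc2, a cholesterol carrier of the lysosome, were at 0 in all 4 MC IP libraries and found in all 4 of PC, at a mean of 156 CPM, or 270% of input, with mean inputs of 31.1 CPM in MC and 57.9 in PC. It is nonetheless among the 32 enzyme genes called lower (-5.24 log2; edgeR adjusted p = 0.00184). No SE is given, since all 4 MC IP libraries were at 0. In input, npc2 was the only gene of the 38 enzyme genes called between the species, beside 10.4% of all loci. It was higher in PC by a log2 fold change of 1.21 ± 0.21 (SE; edgeR adjusted p = 0.00705). The median of loci of its span class, up to 3000 bp, was 1.33. Of the 26 membrane genes 0 were higher and 5 lower in PC inputs, namely slc17a5, lmbrd1, npc1, tmem59 and tmem9, beside 2.28% of all loci lower. Among annotated loci with a mean input of at least 20 CPM, 2.12% to 10.2% were lower in the span classes of these genes. Mean inputs of slc17a5 and npc1, 7.57 and 12.35 CPM, are below that level. Over all annotated loci tested, 0.95% to 3.41% were lower in the same span classes. The call of tmem9 was near the threshold (edgeR adjusted p = 0.0499). DESeq2 called 7 membrane genes lower, and the fit of all 16 libraries called 0. For tmem59 and cd63, membrane proteins of late endosomes and lysosomes, MC IP held 0 in all 4 libraries and PC IP had counts in 3 of 4. In input tmem59 was lower in PC, at -1.14 ± 0.22 (log2, SE; edgeR adjusted p = 0.0117). None of the 38 enzyme genes and 26 membrane genes passed the test of the species difference in IP enrichment (edgeR, 11 loci called in all, 0.0372%; 2447 with an unadjusted p under 0.05).

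Partners of prosaposin and the proton pump gave a mixed picture. Of 12 genes for sphingolipid breakdown with saposins and for prosaposin receptors, most of them also in the enzyme list, 11 were lower in IP (edgeR; median -7.28). Glucocerebrosidase (gba) and sphingomyelinase (smpd1) were at 0 in all 8 IP libraries, from inputs under 5 CPM. The share of other loci at such input levels that were also at 0 was not counted. The mannose 6-phosphate receptor gene igf2r was called lower (-4.14 ± 1.36 log2, SE; edgeR adjusted p = 0.0243), yet its mean IP level was 127% of input in MC and 149% in PC, with 3 of 8 IP libraries at 0. Of 12 subunits of the vacuolar proton pump, which acidifies lysosomes and also synaptic vesicles, 8 were lower (edgeR; median -3.84; 3 to 6 when each fish was left out), a share not far from the 57.4% of all loci. The small subunit genes atp6v1g1 and atp6v1f were not called in IP against input, at -0.03 ± 0.22 and 0.47 ± 0.40 (log2, SE; edgeR adjusted p of 1 and 0.356). The mean IP level of atp6v1g1 was 121% of input in MC and 142% in PC, and that of atp6v1f 213% and 154%. In input 2 of the 12 subunits were higher in PC and 2 lower, with a median of -0.32, beside 8.16% of all loci higher and 2.28% lower. The higher ones were atp6v1g1 and atp6v1f, by 1.73 ± 0.14 and 2.10 ± 0.19 (log2, SE; edgeR adjusted p = 0.00066 and 0.00069), both of the span class up to 3000 bp with its median of 1.33. The lower ones were atp6v0d1 and atp6ap2, at -0.79 ± 0.21 and -0.95 ± 0.20 (log2, SE; edgeR adjusted p = 0.0436 and 0.0173), in a span class with a median of 0.36. With the fish as a block 0 genes of either list were called lower.

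Markers of the immune cells that carry cd74 and srgn were sparse. Of 53 listed microglia and macrophage symbols 18 matched a locus, and of 15 tested 11 were lower in IP (edgeR; median -6.51; 57.4% of all loci lower; 1 with the fish as a block). Their summed input level was 205.8 to 249.3 CPM in MC and 153.6 to 245.9 in PC, so the groups overlapped. In IP the sum was 0.368 to 103.6 CPM in MC, with 1 or 2 genes detected per library, and 112.4 to 260.0 in PC, with 3 to 5 detected, so the groups did not overlap. Other lists did not overlap in IP either. The proton pump sum was 1205 to 3079 CPM in MC and 3661 to 4482 in PC. The sum of chondroitin assembly and proteoglycan genes went the other way, at 481.3 to 936.6 CPM in MC and 111.9 to 349.8 in PC. The share of single loci without overlap in IP was not counted. The most abundant gene of the microglia and macrophage list was aif1l, a paralogue of the microglial marker aif1 that is not specific to microglia, at 0 in 4 of 4 MC IP libraries and found in all 4 of PC (mean 73.4 CPM). Without it the IP sums were 0.368 to 103.6 CPM in MC and 61.1 to 133.4 in PC, and the groups overlapped. The defining markers csf1r, the growth factor receptor of these cells, and ptprc, the leukocyte antigen CD45, were at 0 in all 8 IP libraries, from mean inputs of only 2.62 to 4.82 CPM. How many other loci at such input levels were also at 0 was not counted. The next most abundant genes of the list after aif1l, which was at 74.3% of mean input in PC IP, were spread in PC IP. There mafb was at 103% of mean input with 1 of 4 libraries at 0, grn at 120% with 2 at 0, fcer1g at 106% with 2 at 0 and hexb at 51.1% with 3 at 0. In MC IP, mafb was at 15.3% of mean input, grn at 17.8% with 3 of 4 libraries at 0, and fcer1g and hexb at 0 in all 4. Of the 15 genes tested, 0 were called in the species difference of IP enrichment (edgeR), as were 0.0372% of all loci. In the fit fcer1g and hexb were called lower in IP (edgeR adjusted p = 0.00987 and 0.00587), as was aif1l, and mafb and grn were not. The part of these cells in the levels of cd74 and srgn was not tested.

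Of antigen processing genes 6 were tested in IP against input and 3 were lower (edgeR; median -4.67; 0 to 3 when each fish was left out), among them tap1, a peptide transporter gene. The other 2, psme2 and rfxank, had mean PC IP levels of 189% and 223% of mean input, with 3 of 4 PC libraries and all 4 MC libraries at 0. The cytokine gene mif, whose protein binds the cd74 protein in mammals, was not called in IP (0.52 ± 0.44 log2, SE; edgeR adjusted p = 0.355) and was higher in PC inputs, by 2.13 ± 0.17 (log2, SE; edgeR adjusted p = 0.00053), where loci of its span class, up to 3000 bp, had a median of 1.33. Of 13 tested genes of granulocytes, mast cells, lymphocytes and thrombocytes, cells rich in serglycin in mammals, 9 were lower in IP (edgeR; median -5.09; 2 to 6 when each fish was left out). In input 1 of the 13 was higher in PC, the gene with the symbol was (Wiskott-Aldrich syndrome protein, an actin regulator of blood cells), by 1.84 ± 0.30 (log2, SE; edgeR adjusted p = 0.00549). Another was lower in PC, the transcription factor gene gata3, at -1.56 ± 0.26 (log2, SE; edgeR adjusted p = 0.00653). Of all loci, 8.16% were higher and 2.28% lower in PC inputs. Over loci with a mean input of at least 20 CPM, the medians of the span classes of these 2 genes were 0.85 and 0.08. The first gene, at a mean input of 14.2 CPM, is below that level. Over all annotated loci tested its class had a median of 0.82. Of 21 genes of chondroitin chain assembly and proteoglycans, the family of serglycin, 14 were lower in IP (edgeR; median -5.27; 4 to 10 when each fish was left out). With the fish as a block 0 antigen processing, 0 blood cell and 1 proteoglycan gene were called lower. These shares are read against the 57.4% of all loci that were lower, and none of these counts is taken as particular to its list.

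For the other cell types a lysate could hold, 15 of 17 endothelial and mural genes were lower in IP (edgeR; median -7.15), 7 of 13 glial genes (median -2.82) and 3 of 7 neuronal genes (median -1.46; 0 to 4 when each fish was left out), against 57.4% of all loci. The only matched gene of 30 listed red blood cell symbols, nt5c3a, was called lower (-6.03 ± 1.77 log2, SE; edgeR adjusted p = 0.0168), a call lost in 4 of 8 fits without 1 fish and with the fish as a block. Its mean IP level was 143% of input in MC, with 2 of 4 libraries at 0, and 0 in all 4 PC libraries. Endothelial genes had 126.9 to 186.7 CPM summed over 18 genes in MC inputs and 76.5 to 102.4 in PC inputs. Of 16 tested in input, 0 were called higher and 0 lower in PC (edgeR, adjusted p under 0.05; median log2 fold change -0.53), beside 8.16% and 2.28% of all loci. Among single loci, 12.5% of all tested had all PC inputs below all MC inputs in CPM, a scale that puts PC lower than the fit does. With the fish as a block 0 endothelial, 3 glial and 1 neuronal gene were called lower. The lists differ in input level, with a mean input of at least 72.5 CPM per neuronal gene and at most 20.5 CPM per endothelial gene. The part of input level in these shares was not tested.

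**Figure D4:**
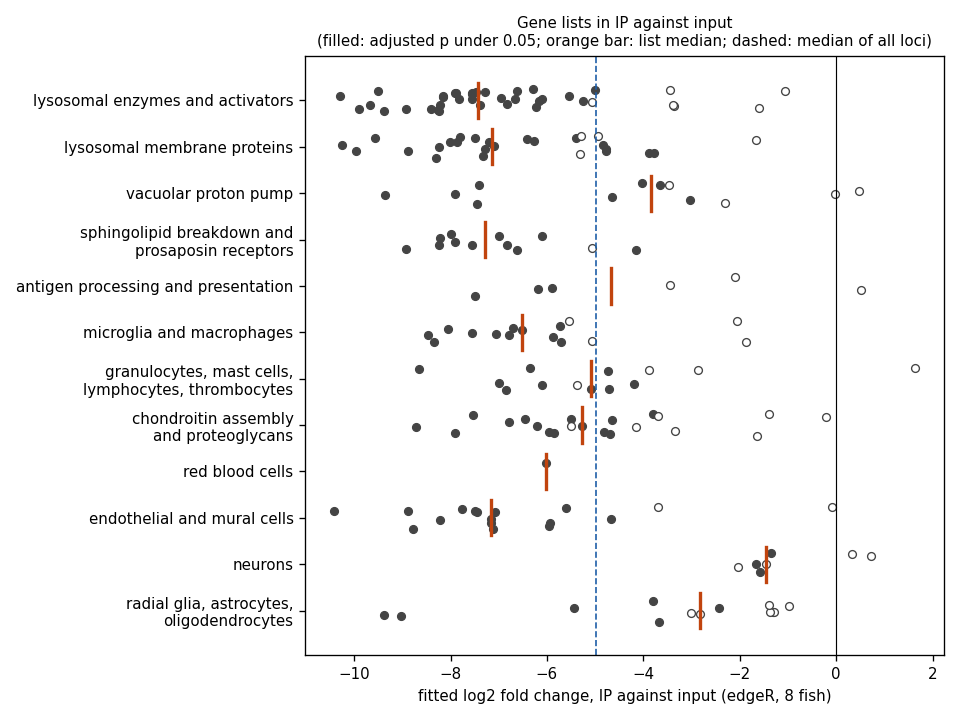
Fitted log2 fold change of IP against input (horizontal axis) for each tested gene of the lists (rows); filled points had an edgeR adjusted p under 0.05, orange bars are list medians and the dashed line is the median of all loci, -4.97. Lysosomal enzyme and membrane genes centre at -7.43 and -7.15, to the left of the dashed line. So do other lists, endothelial (-7.15) and microglia (-6.51) genes among them. The medians of the antigen processing (-4.67), proton pump (-3.84), glial (-2.82) and neuronal (-1.46) lists lie to its right, with single glial genes such as olig1 (-9.03) to its left. Filled points are calls of the fit without the fish as a block. The lists differ in input level, with means of at most 44.5 CPM per enzyme gene and at least 72.5 CPM per neuronal gene. The part of input level in the medians was not tested.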

How the data were processed

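The authors deposited raw counts per assembled locus for 16 libraries (8 fish, input and IP) together with each locus's gene match, per the file headers. The submitters' processing notes name cutadapt, HISAT2, StringTie and DESeq2; the sources used here give no versions, settings, strand use or genome build, so no coordinates are printed. Per the file headers, the authors also deposited DESeq2 output listing for every locus a log2 fold change with its p-value, a test score and a mean normalized signal; the score and signal were not used. The genes and lists were chosen with earlier results of these data known. For each symbol the locus of class code = with the highest summed input count was used.

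Counts were tested with edgeR 4.0.16 (R 4.3.3; TMM, filterByExpr, quasi-likelihood, Benjamini-Hochberg over all loci kept, threshold 0.05, two-sided). The 8 inputs (28742 loci; 4 groups plus batch) were fitted apart from the 16 libraries (29597 loci; 8 groups plus batch). The code was tested on simulated data. Groups hold 2 fish; each gave an input and an IP library, so the fish number pairs them, and the deviations of a pair correlated at 0.17, 0.05, 0.52 and 0.22 for control and mirror fish of MC and then of PC, in that order, over 854 abundant loci. Alternatives were DESeq2 1.42.0, RLE size factors, no low-count filter, the fish as a block, abundant loci alone, each batch alone, all libraries in one fit for the inputs, and leaving out each fish. Leaving out both MC fish of batch a and scaling by library totals were added after seeing the data. Named genes are the 4 transcripts, the most abundant and lowest-p genes of each list, and the loci most like each transcript. Floors (3 counts) cover counting error only. Each SE given with an edgeR value is the absolute log2 fold change divided by the square root of the quasi-likelihood F. It does not measure the precision of the fold where a group has no counts.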

Additional observations from a re-analysis of the deposited data

Results flagged for a closer look

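Mirror exposure went with opposite differences in the IP enrichment of psap in the 2 species. In MC the mirror fish exceeded the control fish of the same batch by 4.18 and 3.57 on the log2 scale, and in PC they were at -0.83 and -0.20, so that the mean difference of PC from MC was -4.39. In MC this rests on 12 and 314 IP counts in mirror fish against 1 and 30 in control fish, and the exact 95% intervals of the MC differences, which cover counting error in IP only, are 1.43 to 9.60 and 3.03 to 4.17. The interaction term of edgeR's fit over 16 libraries was -3.87 ± 2.36 (SE), with an unadjusted p of 0.127 and an adjusted p of 1, and the authors' deposited table gives -3.47 with an adjusted p of 0.341 for the same difference. The difference is therefore not past the threshold by either. The pattern rests on 4 pairs of fish, among them MC fish 9 and 10, whose IP libraries had the fewest counts. It was picked after seeing the data, and the share of all loci with the same signs was not counted. For srgn the same interaction had an unadjusted p of 0.00961 and an adjusted p of 0.677 in edgeR's fit, and in MC it rests on 12 IP counts in the mirror fish and 0 in the control fish, so no fold is given.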

How the results depend on the processing

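Among the 4 transcripts the species difference of srgn in input kept its direction under every alternative run, and lost its call in batch b alone (1.84) and in the fit of all 16 libraries (1.08). That of psap gained a call with DESeq2 (-0.60) and with library totals (-0.88), a scaling that puts the median of all loci at -0.31 against 0.03 with TMM. Leaving out each fish gave 1.06 to 1.69 for srgn, -0.61 to -0.43 for psap, -0.53 to -0.19 for cd74 and -0.28 to -0.03 for laptm4a. Small, uncalled mirror differences changed sign. In input, srgn went to 0.0452 (RLE), 0.0454 (DESeq2), 0.017 (16 libraries) and 0.43 (batch b), laptm4a to 0.0151 (RLE), 0.0152 (DESeq2), 0.00207 (16 libraries) and 0.15 (batch a), and leaving out each fish gave -0.33 to 0.22 for srgn, -0.17 to 0.0879 for laptm4a and -0.0607 to 0.29 for cd74. On IP enrichment, cd74 went to -0.70 in batch b and -0.41 without both MC fish of batch a, and from -0.62 to 5.15 when each fish was left out.

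Counts of called loci moved far more. For PC against MC in input (3000) they were 4633 without the low-count filter, 5918 with DESeq2, 0 in the 16-library fit, 611 in batch b, and 2676 to 5406 without each fish, the highest without MC fish 9. For mirror against control in input (3) they were 272 without the filter, 139 with DESeq2, 0 in the 16-library fit, 57 and 37 in batches a and b, and 62 to 491 without each fish. For the mirror effect on IP enrichment (0) they were 2 without the filter, 1821 with DESeq2, 4 with the fish as a block, 2 among abundant loci, and 0 to 1 without each fish. For IP against input (17095) they were 181 with the fish as a replicate block, 199 among the 854 abundant loci, 10877 in batch b, 4 without both MC fish of batch a, and 9582 to 13532 without each fish. For the species difference of IP enrichment (11) they were 28 without the filter, 2544 with DESeq2, 26 with the fish as a block, 3668 in batch a, 0 in batch b, 1 without both MC fish of batch a, 3 with library totals, and 0 to 13 without each fish. A fit without a fish tests more loci, since the filter then follows a group of 1, which is assumed to vary like the others; other causes were not tested. The block changed no call of the 3 transcripts tested for the mirror effect on IP enrichment, which leave out laptm4a. No paired analysis was possible for the inputs alone because each fish gave 1 input. Counts of called list genes were within 1.5 times of the value given in 418 combinations of list, comparison and setting and outside it in 170.

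The groups hold 2 fish, and IP libraries with few detected loci limit every IP value. Zeros in MC fish 9 and 10 carry the least weight. Reads were not analysed here.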
